A study of Mus musculus with 5 samples.

Results

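Twist1, Prrx1, Prrx2, Alx4, Osr1, Meox1 and Meox2 encode transcription factors of embryonic mesenchyme, and they were taken by name with every probe set annotated to exactly 1 of them. Prrx1 had 4 probe sets, called A to D here in the order of their array identifiers, and Meox2 had 2, called A and B, while the other 5 genes had 1 each. This gave 11 probe sets of 7 genes, out of 20380 single-gene probe sets of 12393 genes on the array. Signals came from 5 arrays of 1 group, wild-type mouse embryos at E10.5, each array carrying RNA from its own tissue isolate. The dissected piece held the pharyngeal arches and, by the sample labels, the second heart field. The mice derived from 129P2/OlaHsd and had been crossed back over 2 generations to C57BL/6, and the embryos carried no listed mutation or treatment. Whether the isolates belong to separate litters is not in the labels, so p-values measure only the spread between these samples, which may be technical. Because the group has no counterpart, the design asks which of these genes gave a signal in the tissue and how evenly over the 5 arrays.

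The pharyngeal arches are outgrowths of the embryonic head and neck whose mesenchyme comes from neural crest and from mesoderm. Twist1 is a basic helix-loop-helix (bHLH) protein that pairs with the widely expressed E proteins and binds E-box sequences, and in the mouse it is needed for cranial mesenchyme and neural tube closure. Prrx1 and Prrx2 are paired-related homeodomain proteins with overlapping roles in craniofacial and limb mesenchyme, and Alx4 is an aristaless-like homeodomain protein of craniofacial and limb bud mesenchyme. Osr1 is a zinc finger protein of the odd-skipped family, known in intermediate mesoderm and in septation of the heart. Meox1 and Meox2 are homeodomain proteins of the somites, where they act together in the sclerotome.

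RefSeq start regions (GRCm38.p6) were matched for 4 of the 7 genes. Those of Twist1 and Prrx1 are printed because these genes passed the background test at every level tried below. Each line holds the 250 bases before the start, 5′ to 3′ on the gene's strand. Capitals mark every match, on either strand, to the TATA box TATAAA, the homeodomain palindrome TAATTA or the E-box CANNTG.
Twist1, chr12:33957421-33957670, plus strand: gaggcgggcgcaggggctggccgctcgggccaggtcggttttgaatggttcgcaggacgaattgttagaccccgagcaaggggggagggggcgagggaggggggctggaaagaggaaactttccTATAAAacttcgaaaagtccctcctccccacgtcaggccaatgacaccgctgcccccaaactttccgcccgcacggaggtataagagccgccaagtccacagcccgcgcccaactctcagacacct
Prrx1, chr1:163313651-163313900, minus strand: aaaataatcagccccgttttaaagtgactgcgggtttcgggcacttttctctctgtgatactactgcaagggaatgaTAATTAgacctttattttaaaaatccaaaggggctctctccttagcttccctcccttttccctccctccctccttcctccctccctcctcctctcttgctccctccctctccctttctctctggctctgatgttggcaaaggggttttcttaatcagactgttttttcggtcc
The Twist1 region held 1 TATAAA, which begins 126 bases before the start, and 62.4% G and C. The Prrx1 region held 1 TAATTA, which begins 173 bases before the start, and 47.6% G and C. Of 32851 start regions of the same length, 12.4% held TATAAA and 4.84% held TAATTA. An E-box was in 66.2% of all regions and in neither of these. The Meox2 region held 1 E-box, which begins 82 bases before its start, and 1 TATAAA on the opposite strand, and the Prrx2 region held none of the 3 motifs. The motifs do not overlap in the printed lines, and a match is not evidence that a factor binds there. Twist1 and Meox2 lie on the same chromosome with 12 protein-coding genes between them.

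The arrays and their make-up bear on every value below. Each deposited array had a mean signal of 150.1 after trimming 2% at each end. The background level was the 95th percentile of 180 probe sets of 151 genes from families known from specialised tissues, such as olfactory and taste receptors, hair keratin-associated proteins, caseins, protamines, defensins and antigen receptor segments. It was a signal of 17.8, 16.2, 18.2, 22.8 and 23.4 in replicates 1 to 5. All 10 marker genes of arch mesenchyme and neural crest were above it, as were 10 of 10 neuronal, 9 of 10 epithelial, 7 of 10 endothelial, 6 of 10 muscle, 4 of 9 erythroid and 3 of 9 liver and yolk sac genes. Of all genes, 54.0% were above it, a share that the muscle count is near and the erythroid and the liver and yolk sac counts are below. Markers of several tissues thus gave a signal, though the counts depend on the level, as given at the end. In whole tissue, fewer cells of a type and less RNA per cell cannot be told apart. Replicate 4 stood apart in its sex-linked genes. The Y-linked Eif2s3y gave 20.1 there and 769 to 968 in the other replicates, and Xist, the RNA of the inactive X chromosome, gave 916 there and 26.3 or less elsewhere. The counts of calls, ranges and likeness that replicate 4 sets are given with and without it.

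In total 5 of the 7 genes gave a signal above background, and Alx4 and Osr1 did not. At the level of probe sets, 8 of the 11 passed limma's one-sided test at an adjusted p below 0.05, where 51.0% of all 20380 probe sets passed. At the level of genes, a gene counting if any of its probe sets passed, 5 of 7 did, where 54.0% of all genes did. The median excess over background, the log2 signal minus the level of the same array, was 1.10 for the 11 probe sets and 0.58 for all probe sets tested. All 8 probe sets that passed lay above the level in each of the 5 arrays, and since probes bind with different strength, the order of excess between probe sets or genes is not an order of RNA amount.

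**Figure D1:**
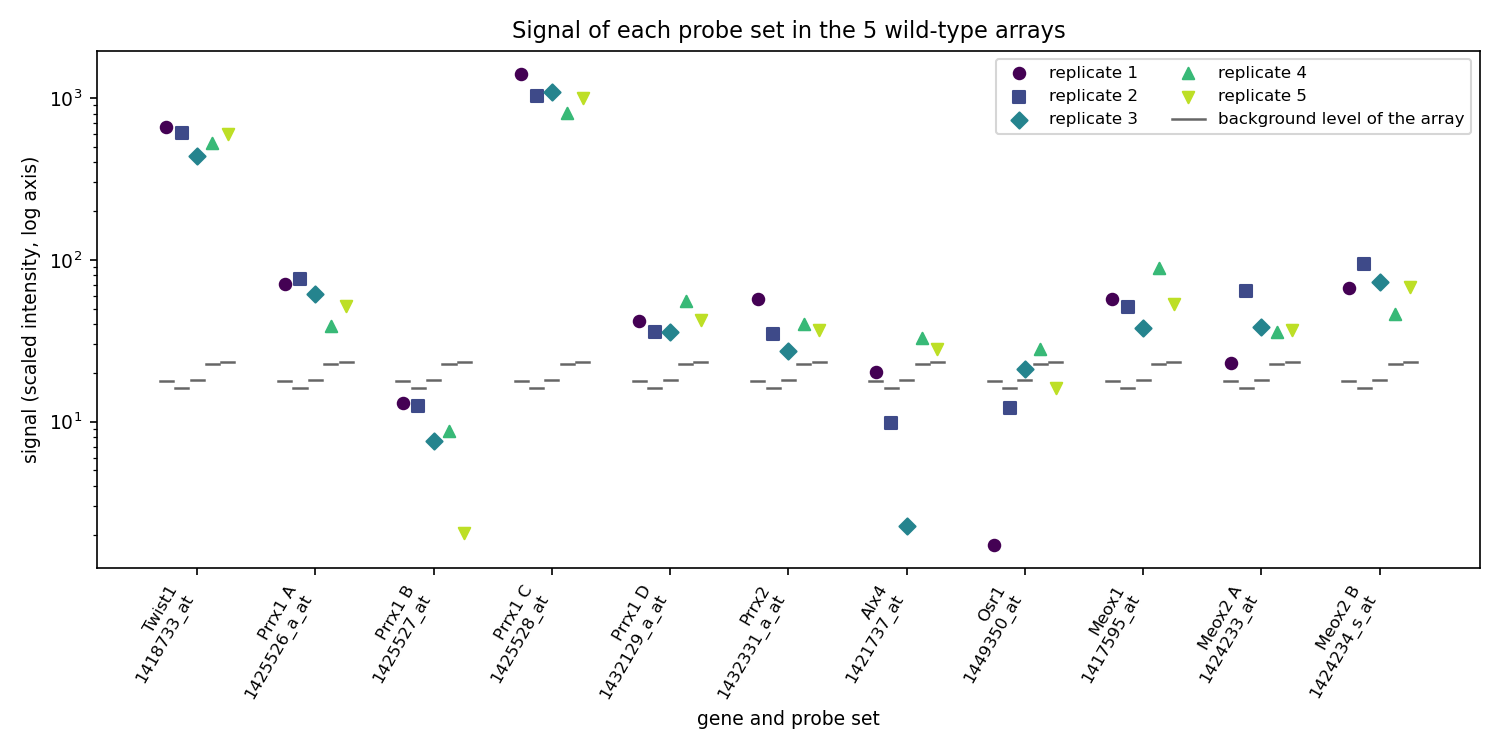
Signal (scaled intensity, log axis) of the 11 probe sets of the 7 genes, with 1 symbol per replicate, and the background level of each array as a short grey line. Twist1 (439 to 663) and Prrx1 probe set C (803 to 1398) lie far above the levels of 16.2 to 23.4 in every array, and the Alx4 and Osr1 symbols fall on both sides of them.

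Twist1 was measured by 1 probe set. Its signals were 663, 604, 439, 529 and 597 in replicates 1 to 5, with a mean of 566 ± 85.5 (SD, n = 5). The highest and the lowest array differed 1.51-fold. The excess over background was 4.85 ± 0.16 log2 units (SE, adjusted p = 7.17e-22, limma), a signal 28.8 times the level. Replicate 3 was the lowest array, and all 5 lay well clear of the level.

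The 4 probe sets of Prrx1 did not give 1 answer. Probe set C read 1398, 1021, 1092, 803 and 1003 in replicates 1 to 5, an excess of 5.75 ± 0.16 log2 units (adjusted p = 1.10e-23, limma). Probe set A, designed from the same sequence record, read 71.2, 76.1, 61.2, 38.9 and 51.6 and passed with an excess of 1.58 ± 0.21 (adjusted p = 5.97e-08, limma). Both were lowest in replicate 4, and they lay on the same side of their own mean in 4 of 5 arrays.

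The other probe sets of Prrx1 read differently. Probe set D, designed from another record, gave 41.9, 36.0, 35.9, 55.3 and 42.5, an excess of 1.10 ± 0.20 (adjusted p = 8.62e-06, limma), and was highest in replicate 4, where the pair above was lowest. It shared the side of its mean with C in 2 of 5 arrays and with A in 1 of 5. Probe set B gave 13.0, 12.4, 7.60, 8.82 and 2.06 and was below the level in all 5 arrays (excess -1.39 ± 0.57, not passed). The positions of these probes in the transcripts are not given in the sources used here, and whether they read different Prrx1 transcripts was not tested.

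Prrx2, the paralog of Prrx1, was measured by 1 probe set. It read 57.4, 34.6, 27.2, 40.2 and 36.7 in replicates 1 to 5, a mean of 39.2 ± 11.2. Every array was above its level, by 0.58 log2 units in replicate 3, the lowest, and by 1.69 in replicate 1, the highest. The mean excess was 0.97 ± 0.22 (adjusted p = 0.000139, limma).

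Alx4 and Osr1, with 1 probe set each, were not above background. Alx4 read 20.2, 9.84, 2.28, 32.7 and 28.3, above the level in 3 of 5 arrays, with a mean excess of -0.55 ± 0.44. Osr1 read 1.74, 12.1, 21.2, 28.0 and 16.2, above the level in 2 of 5 arrays, with a mean excess of -0.76 ± 0.48. Neither passed (adjusted p = 1 for both, limma), and both were highest in replicate 4. Without replicate 3 the Alx4 excess was 0.064 (adjusted p = 0.741, limma), so its sign hung on 1 array. A low signal can also come from a probe set that binds poorly. In simulated arrays 52% of probe sets with an excess of 1 log2 unit were recovered, and 8% of those with 0.5. All other simulated probe sets were set below the level, whereas 51.0% of the real ones passed, so the adjusted threshold was stricter in the simulation. The simulated recovery is therefore no measure of how often such probe sets are missed in the data.

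**Figure D2:**
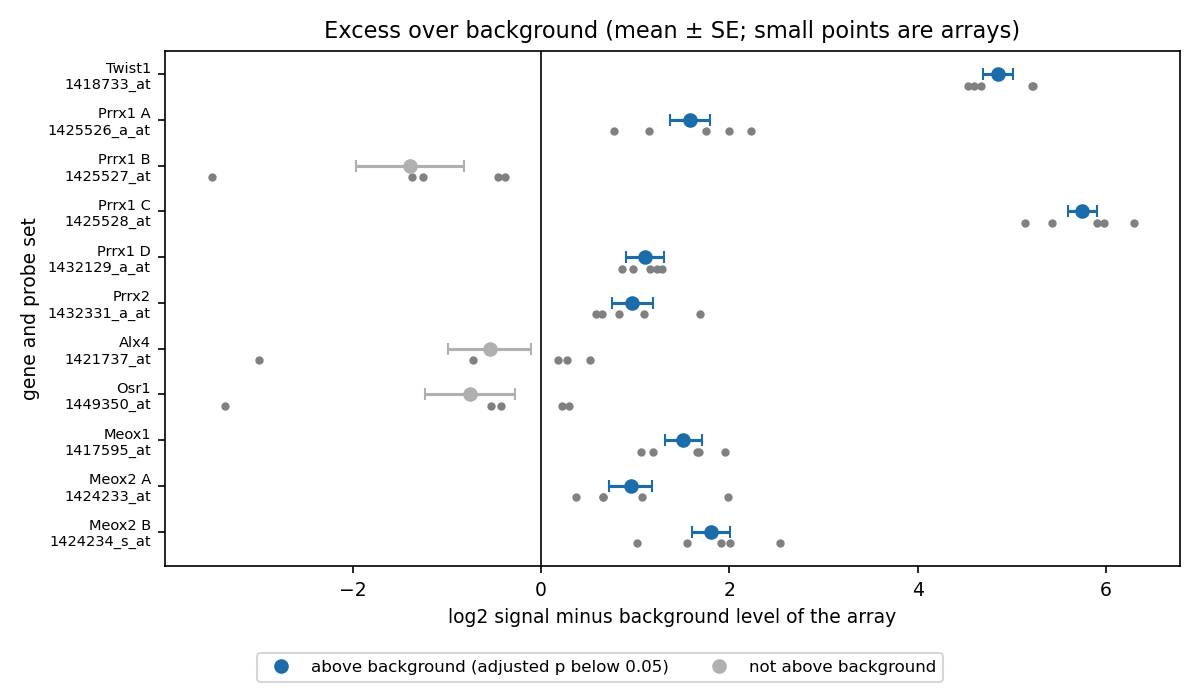
Excess over background (log2 signal minus the level of the same array) of the 11 probe sets, as mean ± SE over 5 arrays in large symbols and as single arrays in small ones. The 8 probe sets in blue passed the limma test, with means of 0.95 to 5.75, and the 3 in grey have means below 0.

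Both Meox genes were above background. Meox1 read 56.9, 51.1, 38.0, 88.4 and 53.1 in replicates 1 to 5, an excess of 1.51 ± 0.20 (adjusted p = 3.57e-08, limma). Replicate 4 was the highest array and replicate 3 the lowest, 2.32-fold apart, and without replicate 4 the range was 1.5-fold. Meox2 probe set B read 66.8, 93.9, 73.2, 46.0 and 68.4 (excess 1.80 ± 0.20, adjusted p = 2.44e-09, limma).

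Meox2 probe set A read 23.1, 63.9, 38.4, 36.0 and 36.9 (excess 0.95 ± 0.23, adjusted p = 0.000333, limma). Both Meox2 probe sets were highest in replicate 2 and lay on the same side of their mean in 4 of 5 arrays. The lowest array was replicate 1 for A and replicate 4 for B. In replicate 4, where Meox1 was highest, both Meox2 probe sets were below their mean.

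No probe set of these genes passed the test for more variation between arrays than probe sets of like signal. Of the 8 probe sets with a mean above the level, 0 passed the F test of variance against limma's trend (adjusted p 0.988 or above), and 0 had an unadjusted p below 0.05. Over all 11686 probe sets tested, 13 passed (0.111%), and 613 had an unadjusted p below 0.05. The variance of the 8 was 0.39 to 1.5 times the trend, lowest for Prrx1 D and highest for Meox2 A. The median SD over the arrays was 0.38 log2 units for the 8 and 0.32 for all tested. The simulated test recovered 65% of probe sets with 3 times the usual SD. All other simulated probe sets had exactly the usual SD, which real ones do not. The simulated share is therefore no measure of recovery in the data. In the data, the marker gene Apoa2, with a variance 9.70 times the trend, did not pass (adjusted p = 0.289, F test). Differences in spread of that size or smaller can thus be missed. The highs and lows by array given here are thus descriptions.

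**Figure D3:**
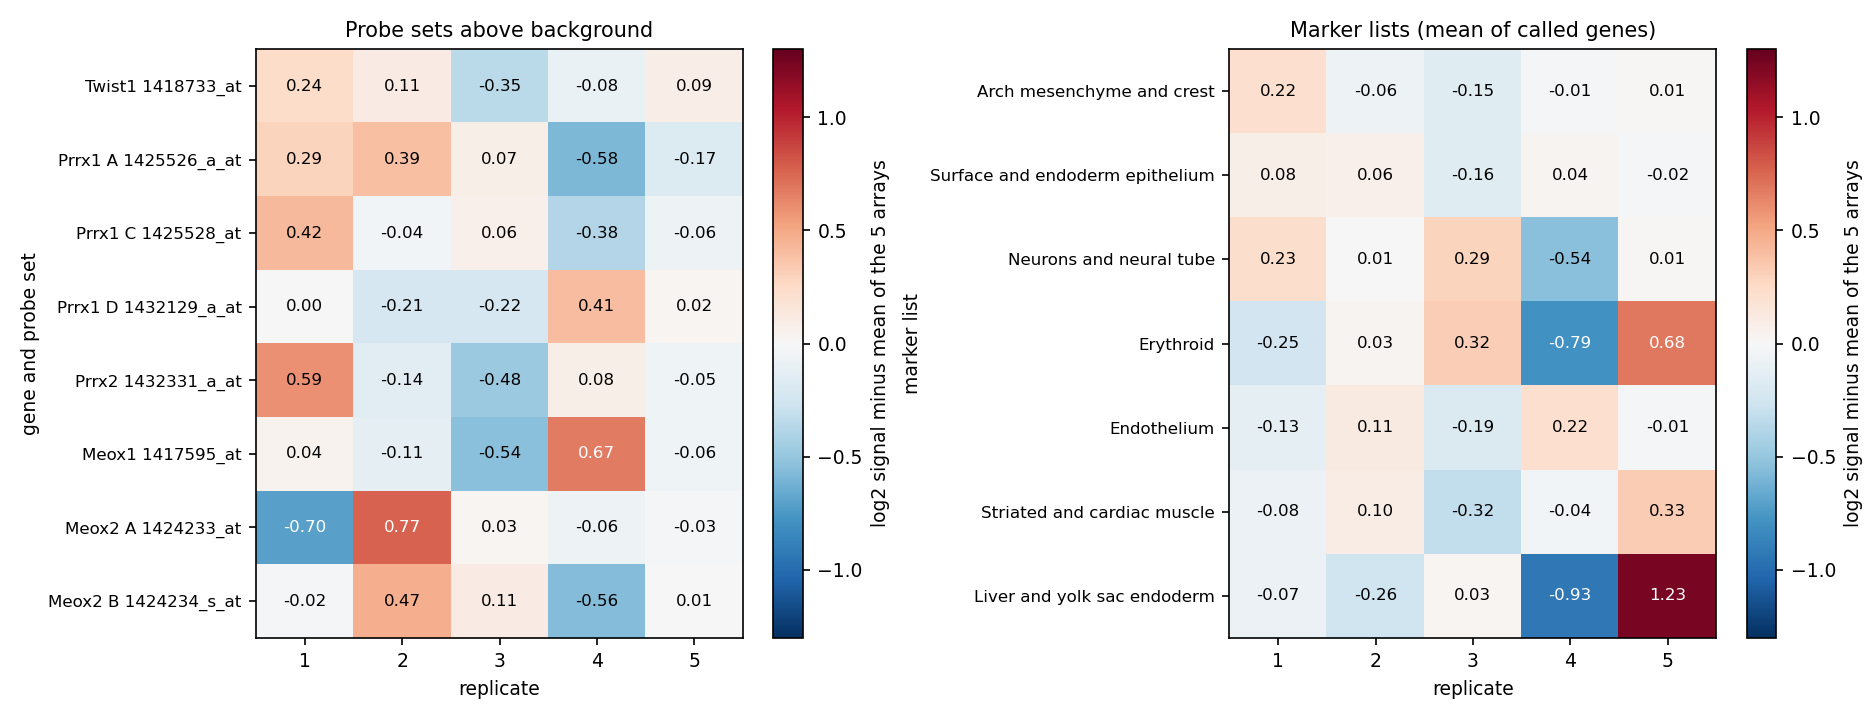
Deviation of log2 signal from the mean of the 5 arrays, by replicate, for the 8 probe sets above background (left) and for the mean of the called genes of 7 marker lists (right). In replicate 4 Prrx1 C is at -0.38 and Meox1 at 0.67, beside -0.54 for the neuronal list and -0.93 for the liver and yolk sac list. The -0.93 is a mean of 3 genes and comes from Ttr (-2.80).

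Several of these probe sets and several marker lists stood low in replicate 4. There Prrx1 C lay 0.38 log2 units below its mean (-0.38), Prrx1 A stood at -0.58 and Meox2 B at -0.56, while Prrx1 D stood at 0.41, Meox1 at 0.67, Prrx2 at 0.08, Twist1 at -0.08 and Meox2 A at -0.06. In the same array the mean of the called markers was -0.54 for neurons, -0.79 for erythroid cells and -0.93 for liver and yolk sac endoderm. It was -0.01 for arch mesenchyme and crest, -0.04 for muscle, 0.04 for epithelium and 0.22 for endothelium. The -0.93 is a mean of 3 genes and comes from Ttr (-2.80), with Vtn at -0.08 and Apoa2 at 0.08. The summed signal takes in all measured genes of a list, called or not. Over the 5 arrays it ran from 10245 to 12447 for the mesenchyme and crest list and from 3932 to 7281 for the neuronal list. It ran from 8466 to 16909 for the erythroid list and from 240.3 to 1210 for the liver and yolk sac list. Without replicate 4 the lowest sums were 5448 for the neuronal, 10834 for the erythroid and 390.01 for the liver and yolk sac list. In replicate 3, where Twist1 (-0.35), Prrx2 (-0.48) and Meox1 (-0.54) were lowest, the mesenchyme and crest list stood at -0.15, the epithelial list at -0.16, the endothelial list at -0.19 and the muscle list at -0.32, while the liver and yolk sac list stood at 0.03, the neuronal list at 0.29 and the erythroid list at 0.32. The part of tissue make-up in these differences was not tested. Without replicate 4, the same 8 probe sets were above background.

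Likeness was measured as the root mean square difference of log2 signals centred on the 5 arrays, among 7398 other genes with a brightest probe set above the level. The number of genes within 0.1 was 89 for Twist1, 25 for Prrx1, 11 for Prrx2, 8 for Meox1 and 10 for Meox2. Over so few arrays this is a description. Nearest to Twist1 were Ascc2 (0.02), Rasa1 (0.03) and Tnrc6c (0.03). Nearest to Prrx1 were Bgn, the small matrix proteoglycan biglycan (0.05), Pvr (0.06) and Marcksl1 (0.06). Nearest to Prrx2 were Wiz (0.03), Ier5 (0.04) and Fam102a (0.06). Nearest to Meox1 were Bckdk, Ubl3 and Fam222b (0.08 each), and nearest to Meox2 were Bloc1s5 (0.05), Alyref (0.06) and Stx19 (0.07). These neighbours hung on single arrays. Without replicate 4, 1 of the 3 nearest was shared with the 5-array result for Twist1 and for Prrx1, and 0 for Prrx2, Meox1 and Meox2. Among the 5 genes themselves, the difference between Meox1 and Meox2 was 0.68 over 5 arrays and 0.31 without replicate 4. That between Twist1 and Meox1 was 0.38 over 5 arrays and 0.026 without replicate 4, but 0.41 to 0.42 with any other replicate left out. The difference between Twist1 and Prrx2 was 0.22 over 5 arrays. Of the 7398 genes, 63.4% lay nearer to Twist1 than Meox1 did over 5 arrays, and 17.2% nearer than Prrx2.

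Other genes of these families, partners and genes of related tissues were read from 5 lists. Of these, 38 of 62 measured genes were above background (61.3%, beside 54.0% of all genes). Among 14 bHLH relatives and partners of Twist1, 8 passed. They were the E proteins Tcf4 (2023 ± 239, excess 6.69 ± 0.14), Tcf12 (770.3 ± 67.9, excess 5.30 ± 0.15) and Tcf3, with all 4 Id genes, whose products bind E proteins without binding DNA, among them Id2 (778 ± 158, excess 5.30 ± 0.16), and Twist2. Twist2, the close relative of Twist1, read 203, 240, 132, 133 and 111 in replicates 1 to 5 (excess 3.01 ± 0.20, adjusted p = 3.10e-14, limma), a call that the higher background level given at the end removes. The 6 that did not pass were Hand1, Hand2, Tcf15, Tcf21, Msc and Scx. Hand2 is known from ventral pharyngeal arch mesenchyme, among other tissues.

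**Figure D4:**
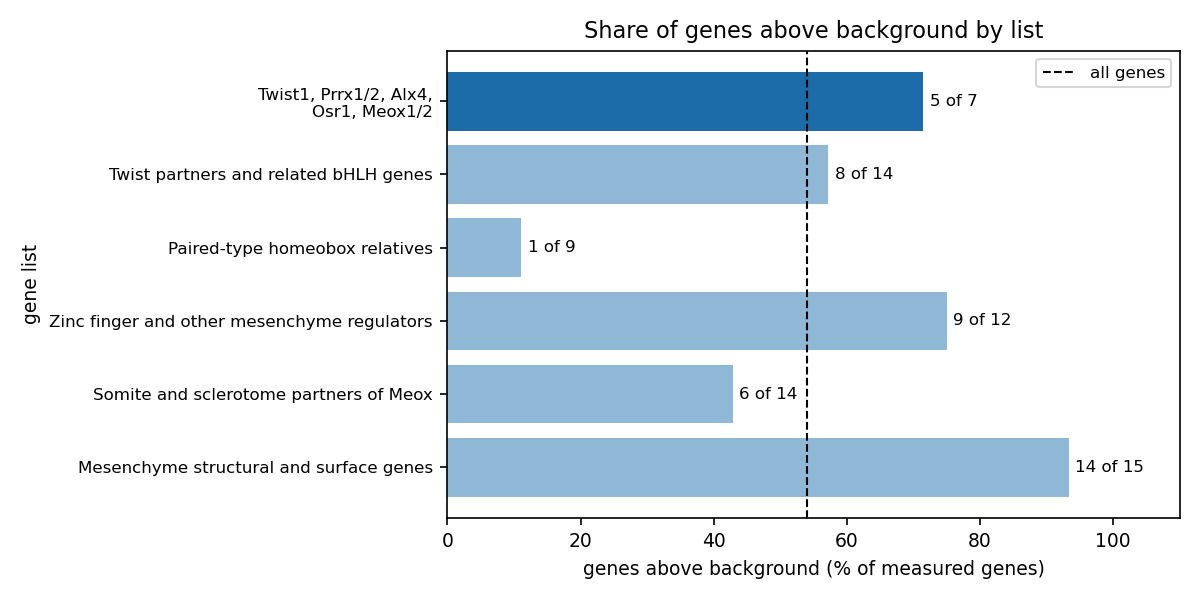
Share of measured genes above background (percent) in the 7 genes described here and in 5 lists of relatives, partners and genes of related tissues. The counts are beside the bars and the share of all genes (54.0%) is a dashed line. The lists run from 1 of 9 paired-type homeobox relatives to 14 of 15 mesenchyme structural and surface genes.

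Homeobox relatives gave the fewest calls. Of 9 measured paired-type homeobox genes, 1 passed, Otx2, a regulator of the forebrain and midbrain (61.4 ± 19.8, excess 1.59 ± 0.20). The list's median excess was -1.64, beside 0.85 for all genes by their brightest probe set. Alx1, a close relative of Alx4, had no single-gene probe set used here. Among 12 zinc finger and other mesenchyme regulators 9 passed, with Zeb1, a repressor tied to the mesenchymal state (1754 ± 187, excess 6.49 ± 0.13), Nr2f2 (709 ± 306) and Nr2f1 (559 ± 93.3), which encode nuclear receptors, among them. Osr2, the paralog of Osr1, was below the level in all 5 arrays (4.31 ± 3.42, excess -2.62 ± 0.65, floored at a signal of 1), as Osr1 was in 3.

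Among 14 measured genes listed for somites and sclerotome, 6 passed, with a median excess of 0.03. Whether they work with the Meox factors was not tested. Pax3 (683 ± 86.4, excess 5.12 ± 0.15), which is also a gene of neural crest and dorsal neural tube, and the forkhead genes Foxc2 (358 ± 129, excess 4.13 ± 0.20) and Foxc1 (290 ± 67.5, excess 3.86 ± 0.17) were among them. Of 15 structural and surface genes of mesenchyme 14 passed, with Vim, the intermediate filament vimentin (4742 ± 723, excess 7.92 ± 0.12), the matrix proteoglycan Vcan (1506 ± 340, excess 6.25 ± 0.14) and the matrix protein Sparc (1474 ± 303, excess 6.22 ± 0.15) among them, and Thy1 was the exception. The lists were chosen with earlier results of these data known, so their counts describe the tissue and support no statement about the 7 genes.

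The calls depended on where the background level was set. With the widely expressed casein kinases and interferon receptors counted among the background families, the level was 123 to 171, and 2 of the 11 probe sets passed, Twist1 and Prrx1 C, where 19.7% of all probe sets did. At that level 7 mesenchyme and crest, 9 neuronal, 3 epithelial, 3 erythroid and 1 endothelial marker genes passed. The muscle list and the liver and yolk sac list each had 0. With the 99th percentile in place of the 95th, 5 of 11 passed, where 8197 of all 20380 probe sets did. Prrx2, Meox2 A and Prrx1 D were the ones lost.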

How the data were processed

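RNA of 5 wild-type tissue isolates was measured. Per the labels' protocols, total RNA (10 ng each) was amplified with NuGEN Ovation kits, labelled with biotin and hybridised to Affymetrix mouse arrays. Differences in amplification are part of the spread. The deposited values are linear intensity values of each probe set. GCOS, of a version not given in the sources used here, made them per the submitters' processing notes. Precision is limited by the number of arrays.

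Of 22690 probe sets, 64 controls, 691 with several genes and 1555 with none were left out. Symbols were updated through Entrez identifiers with RefSeq (20351 of 20380 matched). Values under 1 were set to 1 before taking log2. Excess over the level was tested with limma 3.58.1 in R 4.3.3 (intercept fit, eBayes with trend and robust, one-sided, Benjamini-Hochberg over 20380 probe sets), and variance by an F test against limma's trend. Both were tested on simulated data. Genes were named by a fixed rule: all members, their relatives, the 3 called genes with the highest excess per list and the 3 nearest by likeness; others are named only to complete a count, and a gene under this rule is not reported here. The 7 genes and all lists were chosen with earlier results of these data known. Figures were drawn with matplotlib 3.10.9.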

Additional observations from a re-analysis of the deposited data

Results flagged for a closer look

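Of 28 values checked for a sample far from the other 4, 1 was flagged, and chance flags about 1 in 20. Eif2s3y, a Y-linked gene, read 20.1 in replicate 4 and 769 to 968 in the other replicates. On the log2 scale, used for all these gaps, this was a gap of 0.94 of the whole range. Kdm5d, another Y-linked gene, was also lowest in replicate 4, at 17.5 beside 120 to 201 in the other replicates (brightest probe set). None of the 11 probe sets of Twist1, Prrx1, Prrx2, Alx4, Osr1, Meox1 and Meox2 was flagged. The closest was Prrx1 probe set B, where replicate 5 was lowest (2.06). Its gap on the log2 scale was 0.709 against the critical value of 0.71.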

How the results depend on the processing

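The count of 8 probe sets and 5 genes stayed the same under quantile normalization, a floor or pseudocount of 16, the 90th percentile, limma without trend and robust options, and a minimum mean signal of 16. Leaving out 1 replicate each gave 8 probe sets and 5 genes every time, with 10113 to 10442 of all probe sets above background. Adding casein kinases and interferon receptors to the background gave 2 probe sets, 2 genes, 23 of 62 list genes and 4025 of all probe sets; the excess was then -1.35 for Prrx1 A, -1.83 for Prrx1 D, -1.96 for Prrx2, -1.42 for Meox1, -1.98 for Meox2 A, -1.12 for Meox2 B and -1.33 for Otx2, and Twist2 had an excess of 0.083 and no longer passed. The 99th percentile gave 5 probe sets and 4 genes (8197 of all probe sets). Alx4 turned to 0.15 with a floor of 16 (adjusted p = 0.384, limma), which raises its lowest arrays, and ran from -0.815 to 0.064 with 1 replicate left out (highest without replicate 3), and it passed the threshold in none of these. Over all alternatives the excess ran from 1.92 to 5.17 for Twist1 and from 2.82 to 6.07 for Prrx1 C. The count of more variable probe sets among the members was 0 throughout; over all probe sets it was 13, and 47 with dim probe sets included, and 8 to 28 with 1 replicate left out. The ranges and the likeness with 1 replicate left out were chosen after seeing the data; the range of Meox2 A was 2.77-fold over 5 arrays, 1.78-fold without replicate 1 and 1.66-fold without replicate 2. No paired analysis was possible because there is 1 group. Signals near the background level limit what can be said of Alx4, Osr1, Prrx2, Prrx1 D and Meox2 A.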
